A study of Mus musculus with 8 samples.

Results

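The Hox genes encode homeodomain transcription factors whose combination in a cell records its place along the head-to-tail axis. They were compared between mouse aortic smooth muscle cells (MASMCs) of WT and Hint1-/- mice. The members were all gene symbols that begin with Hoxa, Hoxb, Hoxc, or Hoxd and end in a paralog number, and 35 of the 18533 symbols in the count tables met this rule. They were 10 Hoxa, 10 Hoxb, 8 Hoxc, and 7 Hoxd genes of the 39 in the GENCODE M21 annotation, and Hoxa13, Hoxc12, Hoxd1, and Hoxd12 were not analysed here. The 8 samples were primary MASMCs from C57BL/6J WT mice (n = 4) and from mice with a germline Hint1 deletion (n = 4), and both genotypes had been given PDGF-BB, a growth factor for smooth muscle, at 20 ng/mL for 24 hours. No untreated culture was compared, so every value refers to stimulated cells. The comparison asked whether the cultures of both genotypes carried the same Hox code, since smooth muscle from different levels of the aorta differs in its Hox genes. The methods describe the vessel once as the thoracic aorta and once as the whole aorta, with endothelium and adventitia removed, so the level of the aorta from which the cells grew is not settled by the sources. Whether the 4 samples of a genotype came from separate mice is not stated, and p-values measure the spread between these samples.

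Mammalian Hox genes lie in 4 clusters on separate chromosomes, and genes at the same place in different clusters are paralogs that share a number. Genes near the 3′ end, with low numbers, are used from the head end backward, and genes near the 5′ end, with high numbers, only toward the tail, a relation known as colinearity. Adult fibroblasts and smooth muscle cells keep much of this code in culture, where it serves as a record of the part of the body they came from. In the mm10 build, the Hoxa cluster spanned chr6:52155590-52260880, the Hoxb cluster chr11:96194316-96368256, the Hoxc cluster chr15:102921103-103036852, and the Hoxd cluster chr2:74668310-74765142. Hint1, the deleted gene, lies on the chromosome of the Hoxb cluster, 41.32 Mb away.

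Hox paralogs resemble each other most in the homeobox, the 180 bases that encode the DNA-binding homeodomain. Identical stretches there are one place where reads of one paralog can be counted under the name of another, and overlapping transcripts are another. The homeoboxes of 5 members are shown, those of Hoxc13, the member with the largest difference between genotypes, and of the paralog pairs Hoxc8 and Hoxb8, and Hoxc6 and Hoxb6, in each of which the Hoxc gene was lower in Hint1-/- MASMCs and the Hoxb gene did not pass the test. They were read from GENCODE M21 transcripts, each lies in 1 coding exon on the plus strand, and capitals mark the 18 bases that encode the conserved core of the DNA recognition helix.
Hoxc13 (chr15:102927210-102927389): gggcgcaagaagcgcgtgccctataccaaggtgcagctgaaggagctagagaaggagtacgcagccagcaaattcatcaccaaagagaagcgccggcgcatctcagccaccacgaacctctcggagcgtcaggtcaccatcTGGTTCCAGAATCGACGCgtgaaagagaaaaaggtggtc
Hoxc8 (chr15:102992571-102992750): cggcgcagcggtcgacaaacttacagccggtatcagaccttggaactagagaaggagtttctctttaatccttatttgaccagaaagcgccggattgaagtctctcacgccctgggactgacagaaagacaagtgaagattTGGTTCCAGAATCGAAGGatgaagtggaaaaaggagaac
Hoxb8 (chr11:96284174-96284353): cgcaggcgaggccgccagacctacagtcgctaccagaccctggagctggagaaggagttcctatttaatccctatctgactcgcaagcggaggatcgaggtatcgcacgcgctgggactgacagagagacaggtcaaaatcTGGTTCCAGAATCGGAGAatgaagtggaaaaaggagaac
Hoxc6 (chr15:103010754-103010933): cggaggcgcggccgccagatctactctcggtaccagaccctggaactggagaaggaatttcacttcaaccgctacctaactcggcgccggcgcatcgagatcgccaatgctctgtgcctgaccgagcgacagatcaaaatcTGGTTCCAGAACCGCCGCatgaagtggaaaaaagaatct
Hoxb6 (chr11:96300689-96300868): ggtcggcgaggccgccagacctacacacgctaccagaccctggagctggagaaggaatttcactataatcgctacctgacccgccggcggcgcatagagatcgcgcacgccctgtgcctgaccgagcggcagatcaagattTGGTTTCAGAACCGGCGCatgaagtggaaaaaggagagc

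Over the 180 bases, Hoxc8 and Hoxb8 were 80.0% identical, and Hoxc6 and Hoxb6 were 82.8% identical. The longest run of identical bases was 21 in the first pair and 19 in the second. The homeobox closest to that of Hoxc13 was Hoxd13, at 75.0% identity with a longest identical run of 10 bases, and Hoxd13 was at or near 0 counts. Among all 35 homeoboxes, the 36 pairs with the same paralog number were 67.2% to 93.9% identical, and 1 pair, Hoxa6 and Hoxb4, had an identical run of 50 bases or more. Words of 50 bases that a member shared with any other annotated gene made up 0% of the Hoxc13 exons. They made up 60.2% of the exons of Hoxd3 and 46.8% of those of Hoxd4, whose annotated transcripts overlap on the same strand, so the counts of these 2 genes could not be told apart with certainty. Antisense RNAs overlapped 52.9% of the exons of Hoxb3, 35.0% of those of Hoxa11, 27.3% of those of Hoxb2, 25.4% of those of Hoxa3, and 20.4% of those of Hoxa7. The sources do not say whether the library kept strand, so reads of Hoxb3 and of its antisense partner Hoxb3os may have been counted together.

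The deposited values were estimated counts per gene, which summed to 20778077 to 20888041 per sample. Hint1 had 2272, 2336, 2364, and 2301 counts in the WT samples and 713, 748, 778, and 715 in the Hint1-/- samples. The libraries thus separated by their labels, but Hint1 was not absent, at 32.1% of the WT mean CPM in Hint1-/- samples. The source of these remaining counts was not tested. Counts were scaled to library size, giving CPM, with edgeR's TMM factors, and genes that passed edgeR's filter on low counts were tested by its quasi-likelihood test with Benjamini-Hochberg adjustment. A gene was called changed at an adjusted p under 0.05 and a fold change over 1.5. Over all 13535 tested genes, 2.83% were changed by this rule and 1.49% were changed and lower in Hint1-/- MASMCs. An adjusted p under 0.05 was found for 21.5% of them, and 10.2% were lower with such a p.

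Smooth muscle, macrophage, and glial marker levels moved with genotype, and fibroblast markers moved in both directions. The summed level of 10 smooth muscle markers was 2697 to 2878 CPM in WT and 2497 to 2588 CPM in Hint1-/- samples, with 7 of 10 lower in Hint1-/- MASMCs at an adjusted p under 0.05 and 1, Smtn, higher at a log2 fold change of 0.25. Macrophage markers summed to 2486 to 2853 CPM and 2049 to 2193 CPM, with 7 of 8 tested markers lower, so the labelled smooth muscle cultures also held macrophage transcripts in both genotypes. Glial markers summed to 47.9 to 54.7 CPM and 12.5 to 14.4 CPM, with 6 of 7 tested markers lower. Fibroblast markers summed to 2579 to 2635 CPM and 3377 to 3579 CPM, with 3 of 10 higher and 3 lower. Endothelial markers overlapped, at 8.14 to 10.9 CPM and 8.47 to 10.5 CPM. In each of these lists no marker was at 0 in all 8 samples, but some were near 0. The macrophage markers C1qa and Aif1 had 1 to 15 and 3 to 14 counts, whereas Lyz2 had 19497 to 27662. Endothelial Cldn5 had 1 to 4 counts and glial Gfra3 0 to 3. Over all tested genes, 10.2% were lower and 11.2% higher at an adjusted p under 0.05. The part of these levels in the Hox differences was not tested, and in bulk RNA fewer cells that use a Hox gene and less of its RNA per cell cannot be told apart.

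MASMCs of both genotypes had a similar broad Hox profile, with the highest levels at some genes of paralogs 4 to 9 and almost no Hoxd. Levels were compared between genes as CPM per kb of exon. Not all genes of paralogs 4 to 9 were high. In WT, Hoxa9 at 0.63 and Hoxc9 at 1.96 CPM per kb lay below Hoxb3 at 7.08. Hoxb9, a marker of trunk identity, had the highest level in both genotypes, at 21.1 ± 0.50 CPM per kb in WT and 20.3 ± 0.70 CPM per kb in Hint1-/- MASMCs (SD, n = 4). In WT it was followed by Hoxb6 (15.4 ± 0.66 CPM per kb), Hoxc6 (15.1 ± 0.45), and Hoxb7 (14.7 ± 0.94), whose levels did not differ beyond their spread. Hoxa6 (10.4 ± 0.58), Hoxb4 (10.2 ± 0.68), and Hoxa5 (9.80 ± 1.26) formed the next step, again within their spread. In Hint1-/- MASMCs the same 4 genes led, with Hoxb6 at 14.4 ± 0.80, Hoxb7 at 13.4 ± 0.83, and Hoxc6 at 12.8 ± 0.55 CPM per kb, and the last 2 within their spread.

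Each cluster had its own profile along the paralog numbers. In the Hoxa cluster, the WT level rose from 1.93 CPM per kb at Hoxa2 to 10.4 at Hoxa6 and fell to 2.95 at Hoxa7, 0.63 at Hoxa9, 0.31 at Hoxa10, and 0.031 at Hoxa11. In the Hoxb cluster, the level was 0.036 CPM per kb at Hoxb1, lay between 4.08 and 21.1 from Hoxb2 to Hoxb9, and was 0.038 at Hoxb13, the next gene toward the 5′ end. The Hoxc cluster did not decline evenly. Its level was 2.77 CPM per kb at Hoxc10 and 0.024 at Hoxc11, and 0.74 at Hoxc13, so that Hoxc13, a gene known from hair, nail, and tail development, lay above a neighbor that was at 0 to 3 counts. Hoxd8, at 0.32 CPM per kb, had the highest level of the Hoxd cluster.

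**Figure D1:**
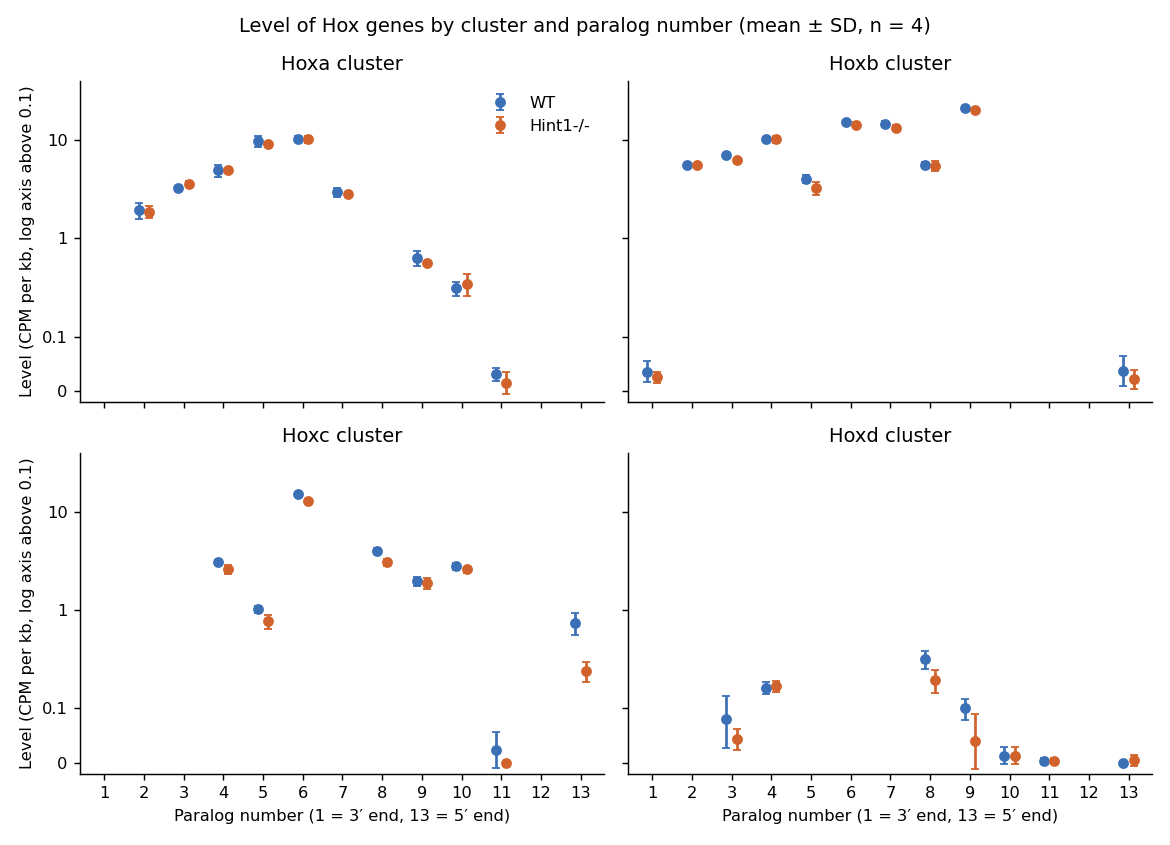
Level of the Hox genes reported here in CPM per kb of exon (y axis, logarithmic above 0.1) against its paralog number (x axis), in 1 panel per cluster. Points are means and bars are SD of n = 4 samples of WT (blue) and Hint1-/- (orange) MASMCs; both genotypes follow the same profile in every cluster, and the widest separation at a tested gene is at Hoxc13, at 0.74 and 0.24 CPM per kb.

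The range of paralogs present was nearly the same in both genotypes. A member was taken as detected where every sample of a genotype had at least 1 estimated count, and 29 members were detected in WT and 27 in Hint1-/- MASMCs, all 27 of them in both. The 5′ limit was Hoxb9 in the Hoxb cluster and Hoxc13 in the Hoxc cluster in both genotypes. It was Hoxa11 in WT and Hoxa10 in Hint1-/- MASMCs for the Hoxa cluster. Hoxa11 had 1, 2, 1, and 2 counts in WT samples and 0, 1, 0, and 2 in Hint1-/- samples. The difference in this limit was thus not detectable at this depth, and these reads may include some of its antisense partner Hoxa11os. The 5′ limit was Hoxd9 in WT and Hoxd8 in Hint1-/- MASMCs for the Hoxd cluster, where Hoxd9 had 5, 5, 3, and 5 counts and 5, 1, 0, and 1. These counts overlapped, and Hoxd9 did not pass the filter for the test.

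In all, 25 members were tested, 9 of the Hoxa, 8 of the Hoxb, 7 of the Hoxc, and 1 of the Hoxd cluster. The 10 others never exceeded 13 counts, and the 4 of them outside the Hoxd cluster, Hoxa11, Hoxb1, Hoxb13, and Hoxc11, had at most 3. Hoxd3 and Hoxd4 had 2 to 13 and 9 to 12 counts, and Hoxd10, Hoxd11, and Hoxd13 had 0 or 1. Hoxc13 and Hoxd8 were the tested members with fewer than 10 counts in a Hint1-/- sample.

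Of the 25 tested members, 1 was changed by both thresholds, Hoxc13, which was lower in Hint1-/- MASMCs, and this was 4.00% of those tested against 2.83% of all tested genes in either direction and 1.49% lower. An adjusted p under 0.05 was found for 5 members, all lower in Hint1-/- MASMCs, which was 20.0% of those tested against 21.5% of all genes in either direction and 10.2% lower. The 5 were Hoxb3, Hoxb5, Hoxc6, Hoxc8, and Hoxc13. Another 4 lower members and Hoxa3, which was higher, had an unadjusted p under 0.05 and an adjusted p of 0.05 or more. Estimates lay below 0 for 19 and above 0 for 6 members. The median log2 fold change was −0.09 over the 25 members and 0.00 over all tested genes, and the median size of the change was 0.10 and 0.09. The values of the 2 genotypes did not overlap for 4 members, all lower in Hint1-/- MASMCs, which was 16.0% of those tested. Among all tested genes, 23.0% did not overlap in either direction. In the same direction as these members, it was 1494 of 13535 genes. For 21 of the 25 members the 95% interval of the fold change lay inside 1.5-fold in both directions.

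**Figure D2:**
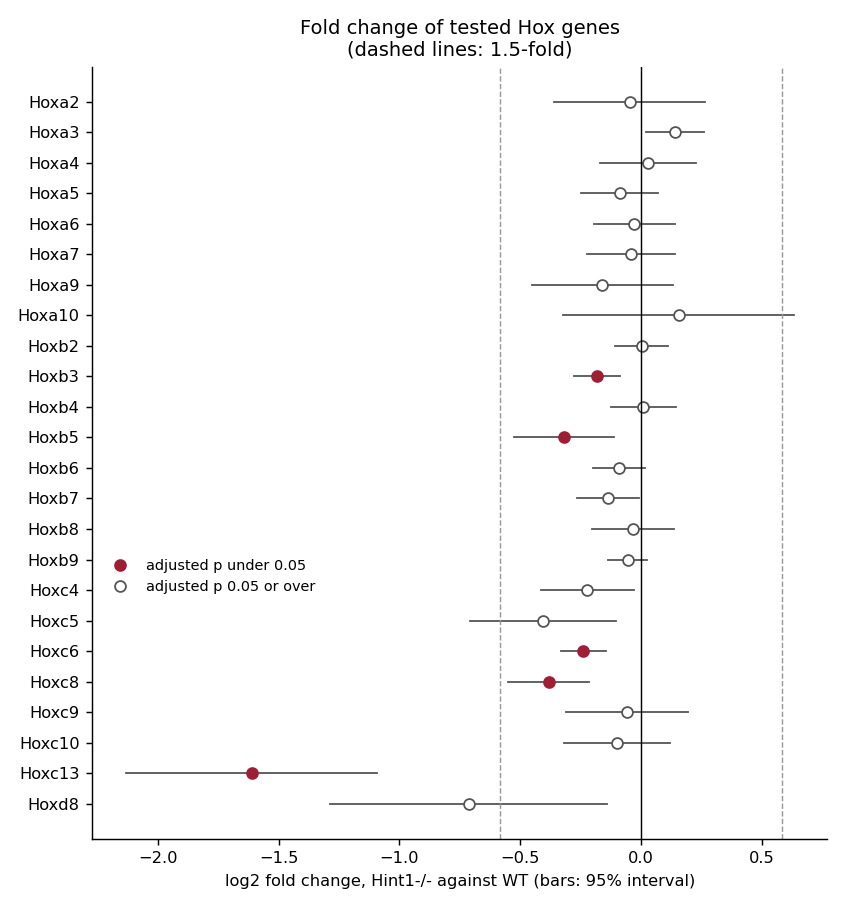
Log2 fold change of Hint1-/- against WT MASMCs (x axis) for the tested Hox genes reported here, ordered by cluster and paralog number (y axis). Points are estimates of edgeR's quasi-likelihood fit over n = 4 against 4 samples, bars are 95% intervals, filled points have an adjusted p under 0.05, and dashed lines mark 1.5-fold; the only filled point beyond a dashed line is Hoxc13 at −1.61, and all 7 Hoxc points lie below 0.

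Hoxc13 was the only Hox gene past both thresholds. It had 47, 32, 28, and 45 counts in WT samples and 8, 14, 13, and 14 in Hint1-/- samples. The lowest WT sample lay well above the highest Hint1-/- sample. In WT MASMCs its mean was 1.82 ± 0.45 CPM, and in Hint1-/- MASMCs it was 0.59 ± 0.14 CPM (SD, n = 4), or 32.7% of WT. On the log2 scale the difference was −1.61 (SE 0.25, 95% interval −2.13 to −1.09, adjusted p = 9.6e-05 by edgeR). The gene lies at chr15:102921103-102928814, at the 5′ end of its cluster, and no annotated gene overlaps its exons. These counts are low, and Hoxc13 made up 0.49% of the summed Hox level in WT samples. Hoxc11, between Hoxc13 and Hoxc10, had 0, 0, 1, and 3 counts in WT and 0 in each of the Hint1-/- samples.

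The Hoxc cluster was lower in Hint1-/- MASMCs at several genes. All 7 tested Hoxc estimates lay below 0, with a median log2 fold change of −0.24, and 3 of them had an adjusted p under 0.05. Over all tested genes, 10.2% were lower with such a p and 21.5% had one in either direction. Hoxc6, a thoracic paralog, had 755, 769, 730, and 783 counts in WT samples and 662, 607, 624, and 662 in Hint1-/- samples. The groups did not overlap, and the difference was small. Means were 36.3 ± 1.09 CPM for WT and 30.8 ± 1.32 CPM for Hint1-/- MASMCs (SD, n = 4), a log2 difference of −0.24 (SE 0.045, adjusted p = 0.00076 by edgeR). Hoxc8, which takes part in patterning the thoracic skeleton, had 257, 233, 232, and 221 counts in WT samples and 177, 163, 176, and 202 in Hint1-/- samples. These groups were also separate. Means were 11.3 ± 0.74 CPM for WT and 8.65 ± 0.78 CPM for Hint1-/- MASMCs (SD, n = 4), a log2 difference of −0.38 (SE 0.079, adjusted p = 0.0017 by edgeR). Hoxc5 and Hoxc4 lay below their WT values without passing the test, with log2 fold changes of −0.41 (adjusted p = 0.052 by edgeR) and −0.22 (adjusted p = 0.095). Hoxc9 and Hoxc10 had values of −0.06 (95% interval −0.31 to 0.19) and −0.10 (95% interval −0.32 to 0.12). Hoxc5 and Hoxc10 share 3.92% and 6.4% of their 50-base words with each other.

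**Figure D3:**
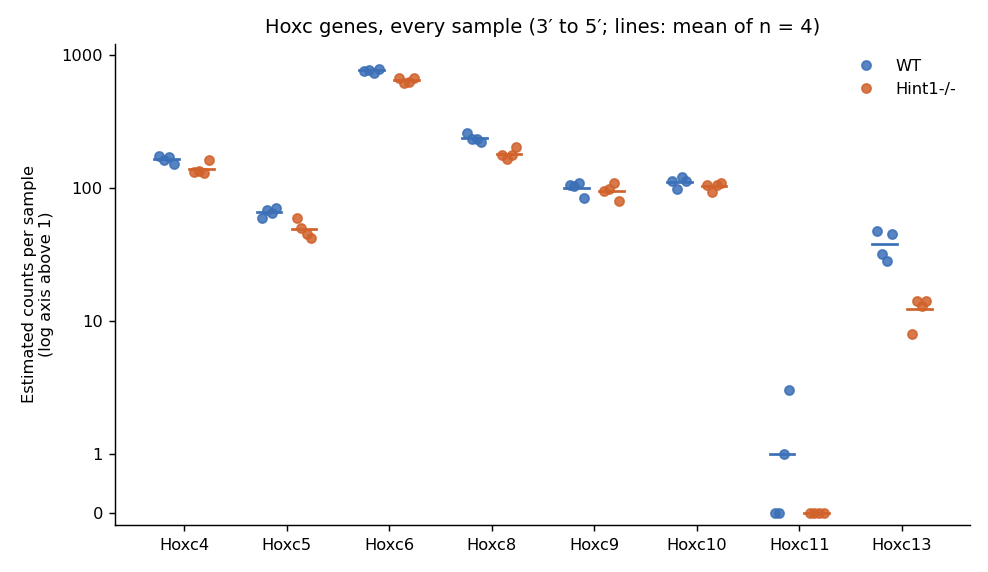
Estimated counts in every sample (y axis, logarithmic above 1) of the 8 Hoxc genes in order from 3′ to 5′ (x axis), for WT (blue) and Hint1-/- (orange) MASMCs. Points are samples and lines are means of n = 4; the genotypes are separate at Hoxc6, Hoxc8, and Hoxc13 and overlap at the other tested genes, and Hoxc11 is at 0 to 3 counts.

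In the Hoxb cluster, 2 of 8 tested genes had an adjusted p under 0.05, both lower. Over all tested genes this held for 21.5% in either direction and for 10.2% that were lower. Hoxb3, active from the hindbrain backward, had 626, 617, 631, and 644 counts in WT samples and 534, 549, 578, and 540 in Hint1-/- samples. The groups were separate. The log2 difference was −0.18 (SE 0.046, adjusted p = 0.0073 by edgeR), with levels of 30.1 ± 0.60 CPM in WT and 26.5 ± 0.90 CPM in Hint1-/- MASMCs (SD, n = 4). As its antisense partner shares much of its exons, this value may hold for both together. Hoxb5, which is active from the cervical level backward, had 266, 214, 228, and 242 counts in WT samples and 181, 152, 205, and 218 in Hint1-/- samples. The groups overlapped, since the highest Hint1-/- sample exceeded the lowest WT sample. The log2 difference was −0.32 (SE 0.098, adjusted p = 0.025 by edgeR), with levels of 11.4 ± 1.09 CPM and 9.10 ± 1.38 CPM. The call for Hoxb5 was lost when WT replicate 1 was left out (adjusted p = 0.094), and likewise for Hint1-/- replicates 1 and 2 (adjusted p = 0.068 and 0.096).

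The most abundant genes of the Hoxb cluster did not pass the test. Hoxb9 had 1161, 1106, 1149, and 1126 counts in WT samples and 1052, 1108, 1125, and 1052 in Hint1-/- samples. These ranges overlapped, and the log2 fold change of −0.06 had a 95% interval of −0.13 to 0.02 (adjusted p = 0.33 by edgeR). Hoxb6 had 651, 595, 646, and 636 counts in WT samples and 574, 604, 552, and 625 in Hint1-/- samples, for a log2 difference of −0.09 and a 95% interval of −0.20 to 0.02 (adjusted p = 0.23). Hoxb2 and Hoxb4 had values of 0.00 (95% interval −0.11 to 0.11) and 0.01 (95% interval −0.12 to 0.14). Hoxb7 and Hoxb8 lay at −0.14 (adjusted p = 0.12) and −0.03 (adjusted p = 0.82). Hoxb3 thus lay between neighbors with values near 0.

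In the Hoxa cluster, no gene had an adjusted p under 0.05 by edgeR, DESeq2, or limma-voom, and 1 of the 9 tested had an unadjusted p under 0.05. The log2 fold changes lay between −0.16 at Hoxa9 and 0.16 at Hoxa10, with a median of −0.03. Hoxa3 had 393, 427, 413, and 416 counts in WT samples and 463, 409, 472, and 459 in Hint1-/- samples. All but 1 of the Hint1-/- samples lay above the WT samples, and the value of 0.14 (SE 0.057) had an adjusted p of 0.093. Without Hint1-/- replicate 2 its adjusted p was 0.032, and its antisense overlap applies here as well. Hoxa5, which is required in the developing lung and neck, had 447, 342, 400, and 350 counts in WT samples and 376, 356, 359, and 345 in Hint1-/- samples. The groups overlapped, and the value was −0.09 (SE 0.076, adjusted p = 0.46). Hoxa10, the most 5′ Hoxa gene detected in both genotypes, had 26, 18, 21, and 20 counts in WT samples and 24, 22, 17, and 31 in Hint1-/- samples. At these counts the 95% interval of its log2 fold change, −0.32 to 0.63, reached past 1.5-fold.

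The Hoxd cluster, best known for limb, genital, and tail patterning, was close to silent. All 7 members together had 0.68 ± 0.060 CPM per kb in WT and 0.46 ± 0.037 CPM per kb in Hint1-/- MASMCs (SD, n = 4), and the samples did not overlap. Hoxd8, the only tested member, had 19, 13, 22, and 19 counts in WT samples and 10, 11, 15, and 8 in Hint1-/- samples. The groups overlapped, and its log2 fold change of −0.71 (SE 0.27) had an adjusted p of 0.072 by edgeR. Its adjusted p was 0.040 without WT replicate 2 and 0.046 without Hint1-/- replicate 3. Hoxd4 had 9, 9, 12, and 10 counts in WT samples and 10, 9, 12, and 10 in Hint1-/- samples.

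To set the code of each sample as 1 value, the paralog numbers were averaged with the level per kb as weight. This mean paralog number is a description over the chosen members and was not tested. It was 6.005, 6.027, 6.013, and 6.025 in WT samples and 5.952, 5.998, 5.967, and 5.939 in Hint1-/- samples. The WT mean was 6.02 ± 0.010 and the Hint1-/- mean 5.96 ± 0.026 (SD, n = 4), so the genotypes did not overlap but differed by 0.05 of 1 paralog position. Without Hoxc13, which carries the highest number, the values were 5.963 to 5.997 and 5.925 to 5.984, and they overlapped. Within each cluster the values of the genotypes overlapped, at 4.82 to 4.86 and 4.75 to 4.83 for Hoxa, 6.22 to 6.27 and 6.21 to 6.30 for Hoxb, 6.74 to 6.86 and 6.71 to 6.81 for Hoxc, and 6.35 to 6.90 and 5.81 to 6.67 for Hoxd.

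The summed Hox level was lower in each Hint1-/- sample than in each WT sample, at 136.3 to 142.8 against 143.0 to 153.6 CPM per kb, and at 325.3 to 342.2 against 343.9 to 368.9 CPM without length scaling. The order of the clusters and of the paralog bands within this sum by their means was the same in both genotypes. Hoxb took 56.0 ± 0.45% in WT and 56.7 ± 1.04% in Hint1-/- MASMCs, with overlapping samples. Hoxa took 24.4 ± 0.70% and 25.9 ± 0.78%, and Hoxc 19.1 ± 0.42% and 17.1 ± 0.40%, and neither overlapped. The Hoxc share was also separate without Hoxc13, at 18.4% to 19.4% in WT and 16.6% to 17.4% in Hint1-/- samples. Hoxd took 0.45 ± 0.029% and 0.33 ± 0.029%, and these did not overlap either. In level per kb, Hoxc summed to 28.2 to 29.3 in WT and 22.8 to 25.0 in Hint1-/- samples, while Hoxa summed to 33.5 to 38.2 and 34.8 to 37.6. By paralog number, bands 1 to 3, 4 to 5, 6 to 8, and 9 to 10 overlapped between genotypes, with WT means of 13.5%, 22.2%, 45.8%, and 17.97% and Hint1-/- means of 14.2%, 22.4%, 44.7%, and 18.5%. Paralogs 11 to 13 took 0.56 ± 0.12% and 0.20 ± 0.062% and did not overlap, and without Hoxc13 these values were 0.065 ± 0.040% and 0.033 ± 0.022% and did overlap.

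**Figure D4:**
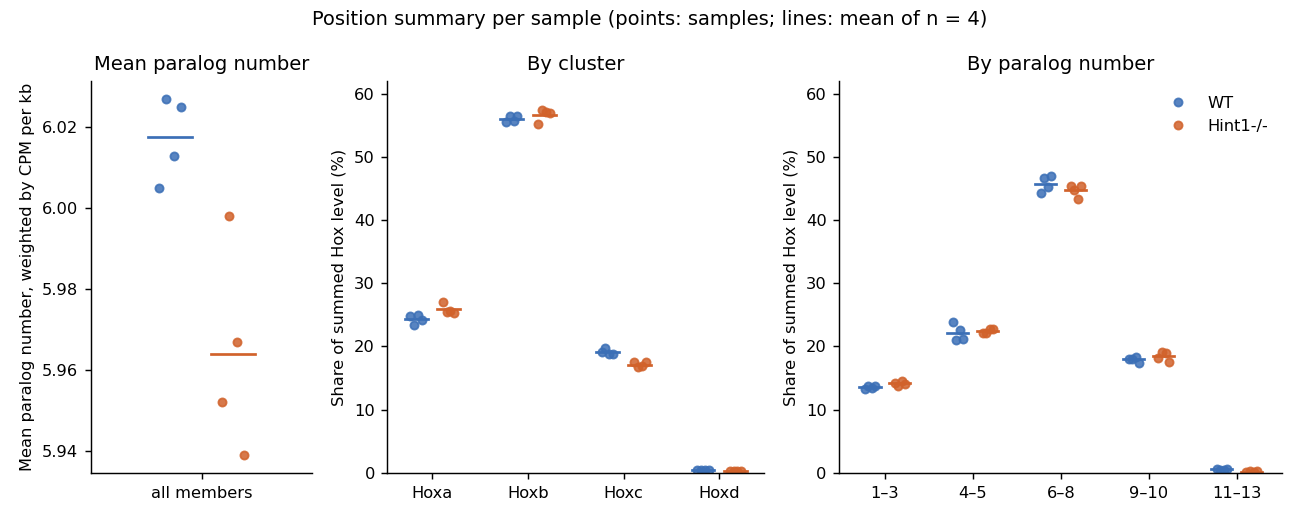
Mean paralog number weighted by CPM per kb (left), and share of the summed Hox level in percent by cluster (middle) and by paralog number (right), for WT (blue) and Hint1-/- (orange) MASMCs. Points are samples and lines are means of n = 4; the axis of the left panel spans only the values, with WT samples between 6.005 and 6.027 and Hint1-/- samples between 5.939 and 5.998, and Hoxc averages 19.1% for WT against 17.1%.

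The profiles of single samples were compared as a description. Over the 25 tested members, Pearson's r of log2 CPM was 0.988 to 0.994 for the 12 pairs of samples within a genotype and 0.965 to 0.992 for the 16 pairs between genotypes. Spearman's rho was 0.977 to 0.993 and 0.975 to 0.991. These ranges overlapped, and the lowest Pearson's r between genotypes lay below the lowest within a genotype. The points of these correlations are genes with levels that differ widely among themselves. A chi-square statistic per gene over the whole table set the genotypes apart, at 2.10 to 5.47 for the first 12 pairs and 11.8 to 17.2 for the other 16. It is another measure over another set of genes, so it cannot be set against the correlations.

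Genes that work with or control Hox genes were read from lists. TALE homeodomain proteins bind DNA together with Hox proteins. Of 9 tested TALE genes, 3 were higher in Hint1-/- MASMCs at an adjusted p under 0.05 by edgeR, among them Meis2 at a log2 fold change of 0.32 and Pknox2 at 0.26, and the other 6 did not pass. These were 33.3% of the list, against 11.2% of all tested genes that were higher with such a p. No TALE gene was past 1.5-fold by edgeR, DESeq2, or limma-voom, and 4 had an unadjusted p under 0.05. Meis2 had 683, 656, 630, and 636 counts in WT samples and 827, 775, 780, and 848 in Hint1-/- samples, which did not overlap. The median over the 9 genes was 0.16.

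Polycomb proteins keep Hox genes silent outside their domain, and Trithorax proteins keep them active. Of 25 Polycomb genes, 4 were higher at an adjusted p under 0.05 by edgeR, among them Mtf2 at 0.23, Cbx6 at 0.13, and Phc3 at 0.15, and the median was −0.02. These were 16.0% of the list, near the 11.2% of all tested genes. Rbbp7, the most abundant of the list, had a value of −0.05 (adjusted p = 0.37). Of 12 Trithorax genes and H3K27 demethylases, 2 were higher, Kmt2a at 0.15 and Men1 at 0.15, or 16.7% of the list against the same 11.2%, with a median of 0.09. Neither list had a gene past both thresholds by any of the 3 tools, with 4 and 7 genes at an unadjusted p under 0.05 by edgeR. DESeq2 passed 2 Polycomb and 1 Trithorax gene at an adjusted p under 0.05. Of 11 tested chromatin boundary genes and other Hox regulators, 1 was higher and 1 lower at an adjusted p under 0.05 by edgeR. Each was 9.1% of the list, near the 11.2% of all tested genes higher and 10.2% lower. The higher gene was the cohesin subunit Rad21, at 0.13.

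Retinoic acid, made from vitamin A, activates 3′ Hox genes in the embryo. Of 14 tested genes of its pathway, 3 were higher and 3 lower at an adjusted p under 0.05 by edgeR, and 1 in each direction was past 1.5-fold. Those in each direction were 21.4% of the list, against 11.2% of all tested genes higher and 10.2% lower with such a p. Rdh10, which makes retinaldehyde, had 397, 365, 394, and 342 counts in WT samples and 619, 638, 597, and 683 in Hint1-/- samples. The groups were far apart, with a log2 difference of 0.77 (SE 0.060, adjusted p = 2.6e-08). Aldh1a3, which oxidizes retinaldehyde to retinoic acid, had 340, 379, 339, and 329 counts in WT samples and 215, 158, 174, and 163 in Hint1-/- samples, for a log2 difference of −0.95 (SE 0.085, adjusted p = 1.4e-07). Aldh1a2, the most abundant gene of the list and an enzyme of the same step, had 7770, 7392, 7283, and 7353 counts in WT samples and 9540, 9733, 9607, and 9246 in Hint1-/- samples, and was higher by 0.37 on the log2 scale (adjusted p = 1.6e-07). Dhrs3, which turns retinaldehyde back to retinol, and Crabp1, which binds retinoic acid, were lower at −0.19 and −0.55. The receptors Rara, Rarb, and Rarg had values of −0.12, 0.01, and 0.08, and none passed. Of the 3′ Hox genes, Hoxa2 and Hoxb2 had values of −0.05 and 0.00. Hoxa3 had 0.14 (adjusted p = 0.093 by edgeR) and Hoxb3 −0.18 (adjusted p = 0.0073). Any part of the retinoic acid genes in these values was not tested.

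**Figure D5:**
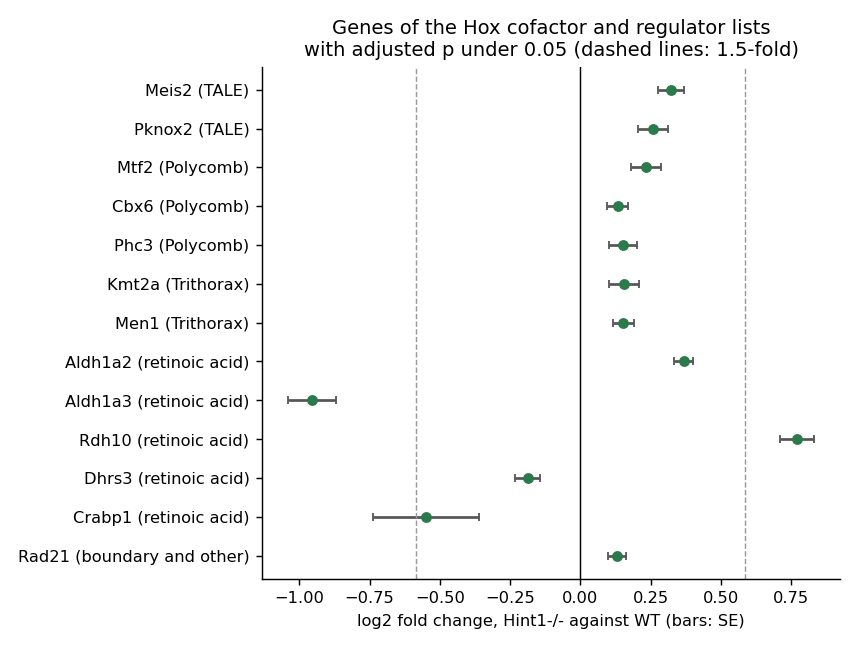
Log2 fold change of Hint1-/- against WT MASMCs (x axis) for the genes reported here of the TALE, Polycomb, Trithorax, retinoic acid, and boundary lists that had an adjusted p under 0.05 (y axis, list in brackets). Points are edgeR estimates from n = 4 against 4 samples and bars are SE, with dashed lines at 1.5-fold; Aldh1a3 at −0.95 and Rdh10 at 0.77 are the genes beyond the lines.

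Smooth muscle of the aorta comes from second heart field, neural crest, and paraxial mesoderm along its length, and transcription factors of these sources were measured beside the Hox genes. Of 7 tested second heart field and cardiac factors, Tbx20, Hand2, and Gata4 were changed and higher in Hint1-/- MASMCs, at log2 fold changes of 1.52, 0.73, and 1.59. Gata4 had 12, 15, 9, and 16 counts in WT samples and 45, 45, 26, and 40 in Hint1-/- samples, which did not overlap. Tbx20 had 6, 6, 4, and 11 counts in WT samples and 14, 17, 23, and 24 in Hint1-/- samples. At these counts it passed the filter only through the Hint1-/- samples. Gata6, the most abundant of them, was higher at 0.28, and Tbx1 was lower at −0.58. Of 8 tested neural crest factors, Sox10, Foxd3, and Tfap2a were changed and lower, at −2.53, −2.28, and −0.92, and Dlx5 was changed and higher, at 2.09. Sox10 and Foxd3 are also glial markers. Dlx5 had 5, 7, 3, and 1 counts in WT samples and 11, 19, 19, and 20 in Hint1-/- samples, and it too passed the filter only through the latter. Of 7 tested paraxial mesoderm factors, Meox2, Pax1, Foxc1, and Foxc2 were higher at an adjusted p under 0.05, at 0.49, 0.40, 0.38, and 0.23, and Pax3 was changed and lower, at −0.74. Genes higher with such a p were 57.1% of the second heart field list, 57.1% of the paraxial list, and 25.0% of the neural crest list. The share over all tested genes was 11.2%. The shares of the second heart field and neural crest lists include Tbx20 and Dlx5, whose direction was set by the filter. With such a p, 4 of 8 neural crest factors were lower, against 10.2% of all tested genes. The Pax3 call was lost with DESeq2 (adjusted p = 0.11) and without WT replicate 2 or 4 or Hint1-/- replicate 1, 3, or 4 (adjusted p = 0.061 to 0.16), and that of Tfap2a without WT replicate 1 or 2 or Hint1-/- replicate 4 (adjusted p = 0.055 to 0.058). In the list of limb and girdle factors, none of 3 tested passed by edgeR, DESeq2, or limma-voom, and 1 had an unadjusted p under 0.05. Prrx1, its most abundant gene, had a value of 0.08. Cardiac muscle markers summed to 5.21 to 5.94 CPM in WT and 8.71 to 12.4 CPM in Hint1-/- samples. Of 5 tested, 3 were higher at an adjusted p under 0.05 by edgeR and none lower. Myh6 had 3, 0, 0, and 1 counts in WT samples and 54, 58, 58, and 32 in Hint1-/- samples. Myl7 had 0 in each WT sample and 28, 16, 34, and 13 in Hint1-/- samples. Myl4, the most abundant, averaged 3.036 and 2.975 CPM and did not pass. Caudal genes and the noncoding RNAs of the Hox clusters were not analysed here.

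The genes next to each cluster were read after the Hox values had been seen. Of 19 tested genes within 500 kb of the Hoxc cluster, 6 were lower at an adjusted p under 0.05 by edgeR, which was 31.6% against 10.2% of all tested genes, and the median was −0.08. They were Itga5, an integrin subunit, at −0.24, Nckap1l and Gpr84, genes of blood cells, at −0.31 and −0.28, and Pde1b, Prr13, and Pcbp2 at −0.48, −0.15, and −0.10. Hnrnpa1 and Cbx5, which lie nearer to the cluster, had values of 0.02 and 0.04. Near the Hoxa cluster 1 of 3 tested genes was lower, Skap2 at −0.17. Near the Hoxb cluster 2 of 13 were lower, or 15.4%, and 2 higher. Igf2bp1, 188.4 kb away, was the only neighbor of any cluster that was changed, at −1.33 (adjusted p = 0.0062 by edgeR). It had 16, 14, 19, and 10 counts in WT samples and 6, 7, 6, and 4 in Hint1-/- samples.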

How the data were processed

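RNA was oligo(dT)-enriched and sequenced as short reads from 4 WT and 4 Hint1-/- MASMC samples. Per the labels, the authors deposited estimated counts per gene symbol without normalization. The submitters' processing notes list Bowtie2, RSEM 1.3.1, DESeq2 1.4.5, and mm10, whereas the paper's methods name HISAT2. The annotation used for counting is not given in the sources used here. RSEM divides reads that fit several transcripts or genes, and 51 of the 280 Hox values were not whole.

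Counts were rounded, filtered with edgeR's filterByExpr, scaled by TMM, and tested with glmQLFit and glmQLFTest (edgeR 4.0.16, R 4.3.3), with genotype as the only term. DESeq2 1.42.0 and limma-voom (limma 3.58.1) were alternatives. On simulated data, 198 of 200 genes with a 2-fold change were recovered among 13535. The changed genes were drawn from the more abundant ones, and all genes were given the same spread between samples. This recovery therefore does not extend to genes at low counts. Lengths and positions came from GENCODE M21. Genotypes came from the sample labels. Genes were given by name if their adjusted p was under 0.05, if they were among the 2 most abundant of a cluster, or if they were the most 5′ detected; companion genes if changed or most abundant in their list, and others were chosen after their values were seen. The members and lists were chosen with earlier results of these data known. The values of some genes are not reported here, in the text or the plots, but counts over a list include them.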

Additional observations from a re-analysis of the deposited data

Results flagged for a closer look

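Each Hox gene and summary value was searched in each genotype for a sample far from the other 3, and 2 of the 76 groups examined had one, where chance gives about 1 in 20. Hoxa4 was low in WT replicate 2, at 132 counts against 171 to 177 in the other WT samples. The gap was 0.874 of the range of log2 CPM. Its log2 fold change was 0.03. Hoxc13 was low in Hint1-/- replicate 1, at 8 counts against 13 to 14 in the other Hint1-/- samples, with a gap of 0.854 of the range. Over the alternatives that tested it, which include leaving out each sample, the log2 fold change of Hoxc13 lay between −1.73 and −1.46.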

How the results depend on the processing

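The median log2 fold change of the tested Hox genes was below 0 under every alternative tried, at −0.13 to −0.06, and 4 to 6 Hox genes had an adjusted p under 0.05. Hoxb3, Hoxc6, and Hoxc8 passed in 16 of 16 alternatives, Hoxc13 in 15 of the 15 that tested it, and Hoxb5 in 13 of 16. The number of Hox genes changed was 0 with at least 10 counts in every sample, a filter that left Hoxc13 untested, 5 at any size of change, and 1 to 2 when a sample was left out, where the second gene, without WT replicate 2 or Hint1-/- replicate 3, was Hoxd8 at −0.85 or −0.90. At any size of change, 2907 genes were changed in all. The difference in mean paralog number was −0.092 with log2 weights and −0.0315 without Hoxc13. The share of paralogs 1 to 3 rose by 1.08 percentage points without length scaling and 0.978 with the longest transcript, against 0.628, and that of paralogs 4 to 5 differed by −0.1235 to 0.8328 percentage points when a sample was left out, turning direction without WT replicate 2 or 4. The value of Hoxa10 lay between −0.0055, without Hint1-/- replicate 4, and 0.2833 when a sample was left out. Same-numbered samples did not deviate together (correlations of −0.045 to 0.081), so the numbers do not pair the samples. With the replicate number as a block, 382 genes were changed, 1 of them a Hox gene, and 5 Hox genes had an adjusted p under 0.05. Depth limits Hoxa11, Hoxb1, Hoxb13, Hoxc11, and all Hoxd genes but Hoxd8. Settings added after seeing the data were the longest transcript, no fold limit, the set without Hoxc13, and all those for shares and companion genes. Other causes were not tested.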
